A study of Mus musculus with 15 samples.

Results

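The genes described here were 43 mouse genes that build, load and consume autophagosomes, out of 57186 genes in a count table from RAW264.7 cells. They were chosen by name, from the steps of the pathway, with earlier results of these data known. All 43 passed the filter of at least 10 reads summed over the libraries. RAW264.7 is a mouse macrophage-like line grown here in RPMI medium with serum, and poly(A) RNA was sequenced from 15 libraries in 5 groups of 3, each collected 6 h after dosing. SNP100 and SNP50 cells received nonporous silica nanoparticles of nominal diameters 100 and 50 nm at 50 and 25 µg/mL. MSNP cells received mesoporous particles of 100 nm, and HMSNP cells hollow mesoporous particles of 100 nm, both at 200 µg/mL, and nontreated control cells received none. Each dose was the highest that was not toxic for that particle, so that only MSNP and HMSNP were compared at the same dose, and all groups came from 1 cell line without any genetic change. The libraries of a group share a leading number in their names, and this number differs between the groups. What it stands for is not given in the sources used here, and it cannot be told apart from the group.

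Macroautophagy wraps cytoplasm, damaged organelles or aggregates in a double membrane that then fuses with a lysosome. A kinase complex starts the process, a lipid kinase complex marks the site with phosphatidylinositol 3-phosphate, and lipid transfer proteins extend the membrane. Ubiquitin-like proteins of the ATG8 family are joined to lipid on this membrane, where they bind cargo receptors and the tethers and SNARE proteins that bring the lysosome. Phagocytes also attach ATG8 proteins to single membranes of phagosomes and of damaged endosomes and lysosomes, using much of the same conjugation machinery.

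The libraries held between 29369934 and 42617812 counted reads. All 10 macrophage markers examined, among them Cd68, Csf1r and Lyz2, were detected, and their summed level was 13473 to 20389 CPM (counts scaled to library size by the TMM method). Lyz2 alone read 8928 to 15071 CPM, while Mrc1 was the lowest of them at 0.286 to 2.02 CPM. Fibroblast, T cell and B cell markers did not exceed a summed 0.397 CPM, no epithelial marker had enough reads to be tested, and the summed neutrophil markers, of which S100a8 alone had enough reads to be tested, reached at most 3.2 CPM. Nothing in the labels says that the 3 libraries of a group came from separate cultures, so that the p-values measure only the spread between these libraries. In such bulk RNA, fewer cells that express a gene and less of its RNA per cell cannot be told apart.

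Control replicate 3 stood apart from the other controls, and this touched the autophagy genes by the length of their transcripts. In this library 11 of the 12 members with a transcript under 2.5 kb were above the mean of the other 2 controls, with a median log2 difference of 0.50. Of the 17 members with a transcript of 5 kb or longer, 14 were below that mean, with a median log2 difference of -0.51. The short Map1lc3a, Vamp8 and Atg101 were the highest there and the long Atg2b and Epg5, with Atg9a, the lowest. The median SD of a member's log2 CPM was 0.26 among the controls and 0.05 to 0.08 in the 4 treated groups. The fit used a single estimate of each gene's spread for all groups. The SE and p of comparisons between treated groups thus also carried the spread of the controls. Those of comparisons with the controls may be too small for that spread. Counts of changed members against the controls are given with and without Control replicate 3. Control replicates 1 and 2 also differed from each other. Over all genes, the mean chi-square per gene between them was 66.2, where sampling noise alone gives 1. It was 174 and 205 for their pairs with Control replicate 3, and 4.58 to 13.9 between replicates of the treated groups. Leaving out Control replicate 3 therefore did not leave closely matching controls.

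**Figure D1:**
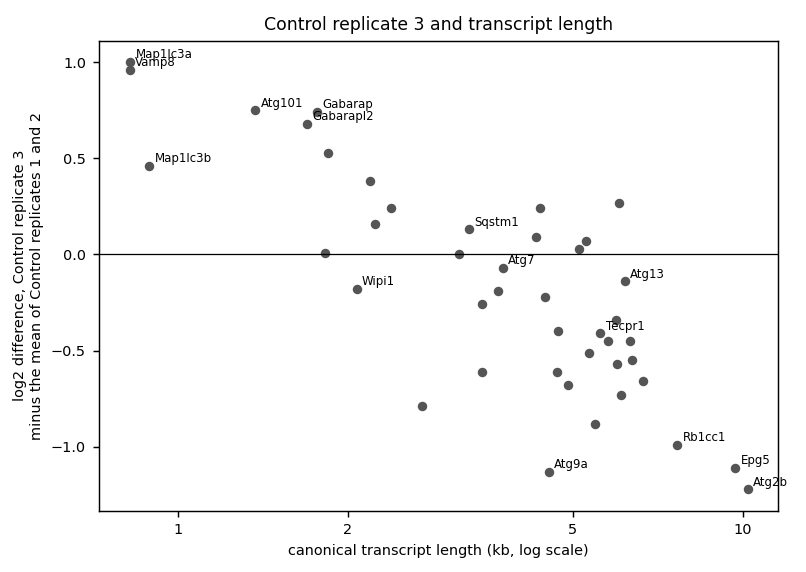
Each point is 1 of the 43 autophagy genes, with the length of its canonical transcript in kb on a log axis and, on the vertical axis, its log2 CPM in Control replicate 3 minus the mean of Control replicates 1 and 2. Short transcripts lay mostly above 0 and long ones mostly below, with Map1lc3a the highest and Atg2b the lowest at -1.22.

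Measured per kb of transcript, the levels of the genes in the nontreated controls spread widely. Sqstm1, the cargo receptor p62, was the highest at 215 ± 14 CPM per kb (SD, n = 3). The ATG8 gene Gabarap at 131 ± 41.7 CPM per kb and the SNARE gene Vamp8 at 127 ± 52.8 followed and did not differ beyond their spread. Map1lc3b, which encodes LC3B, was at 85 ± 16.3 CPM per kb. Next came Gabarapl1, Gabarapl2 and Atg3 at 43.2 ± 2.28, 38.5 ± 11.2 and 37.4 ± 5.94 CPM per kb, again within their spread. The genes of the initiation complex were lower, from 17.2 ± 5.57 CPM per kb for Atg101 to 3.14 ± 1.15 for Rb1cc1. Optn, the cargo receptor optineurin, was the lowest of all at 0.198 ± 0.108 CPM per kb, which rested on 14, 30 and 12 counted reads in the 3 control libraries.

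Among the 4 particles, MSNP moved the most autophagy genes. Against the nontreated controls, 13 of the 43 members rose and 4 fell in the MSNP group at an edgeR adjusted p under 0.05, which was 30.2% and 9.3% of them. Over all 19839 tested genes, 11.8% rose and 11% fell, and over the 10926 genes with a mean CPM at least that of the lowest member, 18.5% rose and 15.1% fell. With all libraries in the fit, the share of members that fell was thus no higher than among other genes. The lowest member was Optn, at a mean of 1.63 CPM, and the next lowest was Atg10 at 5.86 CPM. Shares over genes at the higher levels of the other members were not taken. The median log2 fold change was 0.15 over the members and -0.05 over all tested genes. Without Control replicate 3, 18 members rose and 8 fell, where 16.3% and 13.2% of all tested genes did, and the median over the members was 0.08. The share of members that fell was then above that over all tested genes. Of the 17 members called, 9 were called under all 23 alternative settings: Atg13, Rubcn, Wipi1, Atg7, Sqstm1, Optn, Snap29, Plekhm1 and Tecpr1. The other particles changed few members against the controls, and SNP100 and SNP50 each raised 1 member, Tecpr1, where 0.509% and 0.454% of all tested genes rose. No member fell with either by this test, against 0.403% and 0.958% of all tested genes, although 3 members for SNP100 and 7 for SNP50 were lower at an unadjusted p under 0.05, and DESeq2 called 1 lower for SNP50 and 0 for SNP100. HMSNP lowered 2 members, Wipi1 and Atg4b, where 2.7% of all tested genes fell. No member rose with HMSNP by edgeR, while 2.46% of all tested genes did, 5 members were higher at an unadjusted p under 0.05, and DESeq2 called 1. For the unadjusted p and for DESeq2, no share of all tested genes is given here or below.

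Without Control replicate 3, SNP100 raised 3 and lowered 2 members, SNP50 raised 5 and lowered 8, and HMSNP lowered 3. For SNP100, 2.84% of all tested genes were then higher and 2.32% lower. For SNP50 these shares were 9.63% and 9.3%, and for HMSNP 4.47% and 4.2%. Without Control replicate 2 in its place, HMSNP raised 12 and lowered 8 members, where 13.3% and 11.9% of all tested genes were called. The member counts for these 3 particles thus depended on which control libraries were kept. The counts over all genes changed too, but not in the same proportion. With all libraries, HMSNP raised 0 of the 43 members, against 2.46% of all tested genes, and SNP50 lowered 0, against 0.958%. The 12 and 8 members of HMSNP without Control replicate 2, and the 8 lowered by SNP50 without Control replicate 3, were larger shares than over all tested genes. Whether members moved further than genes of similar level was not tested for these fits.

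The libraries themselves showed the same order. In 15 members all 3 MSNP libraries were above all 12 other libraries, which held for 11.4% of all tested genes, and in 2 members, Wipi1 and Calcoco1, all 3 were below them, which held for 7.98%. For HMSNP this was the case upwards for Stx17 alone, against 3.82% of all tested genes, and downwards for Atg4b, Atg4d and Map1lc3b, against 3.62%. The 3 SNP50 libraries were below all others in Atg4a and Gabarapl1, against 1.31% of all tested genes. Over the 10926 genes at or above the level of the lowest member, the shares above and below were 17.7% and 11.8% for MSNP. For HMSNP they were 6.13% and 6.03%, and the share below for SNP50 was 1.98%.

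**Figure D2:**
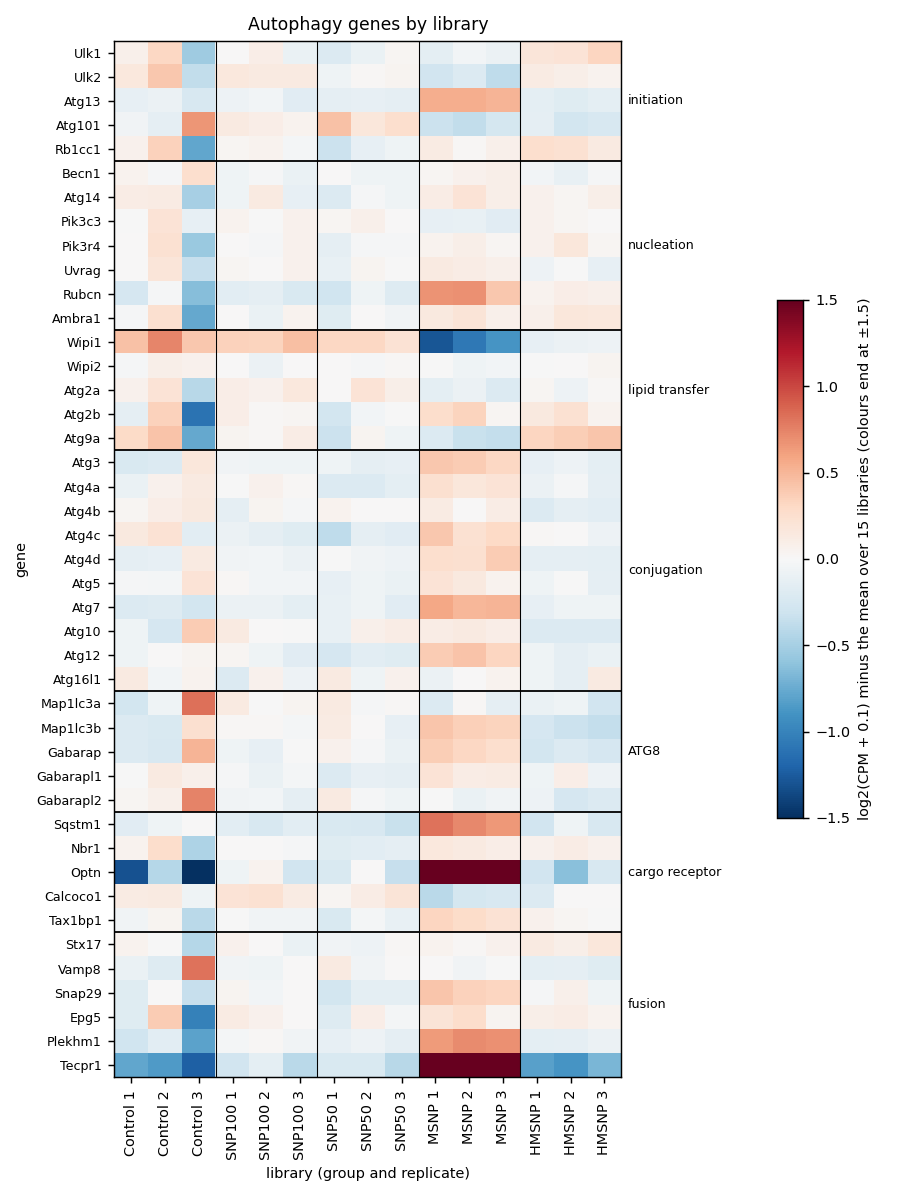
Rows are the 43 autophagy genes ordered by step and columns the 15 libraries, with the colour giving log2(CPM + 0.1) minus the gene's mean over all libraries and ending at 1.5 on either side. The 3 MSNP columns carry most of the strong colours, red for Tecpr1 and Optn and blue for Wipi1, and Control replicate 3 differs from the other controls in many rows.

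The promoters of 5 members are shown because these genes moved with MSNP and because they show the range of letters found upstream of the set. Each window runs from 250 bases before to 50 bases after an annotated RefSeq start, was taken from a RefSeq table on GRCm38.p6, and was placed by its only exact match on the same chromosome of GRCm39. Windows were held for 36 of the 43 members. Tecpr1 rose the most and Wipi1 fell the most. Among the members called higher with MSNP, only Rubcn, Atg3 and Atg7 had a held window with the E-box core CACGTG, in capitals. This core is the centre of the element that the lysosomal regulators of the MiT/TFE family recognise. Atg14 and Atg5, which also had a window with CACGTG, were not called with MSNP, at log2 fold changes of 0.20 and 0.08.
Tecpr1, chr5:144160384-144160683, minus strand: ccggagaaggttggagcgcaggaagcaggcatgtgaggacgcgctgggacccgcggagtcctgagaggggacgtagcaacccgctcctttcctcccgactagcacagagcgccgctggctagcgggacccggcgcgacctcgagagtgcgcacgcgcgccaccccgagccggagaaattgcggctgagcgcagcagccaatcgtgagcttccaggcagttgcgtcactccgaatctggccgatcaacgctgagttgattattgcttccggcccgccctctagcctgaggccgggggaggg
Wipi1, chr11:109502166-109502465, minus strand: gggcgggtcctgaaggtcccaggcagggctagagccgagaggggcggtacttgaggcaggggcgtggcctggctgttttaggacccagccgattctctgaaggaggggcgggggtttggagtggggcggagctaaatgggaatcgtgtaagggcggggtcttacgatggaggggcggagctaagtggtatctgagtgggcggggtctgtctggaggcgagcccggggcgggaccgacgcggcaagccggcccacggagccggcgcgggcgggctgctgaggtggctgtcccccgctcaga
Rubcn, chr16:32688687-32688986, minus strand: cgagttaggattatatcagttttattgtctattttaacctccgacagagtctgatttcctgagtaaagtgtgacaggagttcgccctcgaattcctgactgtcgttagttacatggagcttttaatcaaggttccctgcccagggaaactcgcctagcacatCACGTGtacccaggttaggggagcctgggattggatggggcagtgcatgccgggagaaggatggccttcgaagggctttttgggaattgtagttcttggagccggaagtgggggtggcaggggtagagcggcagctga
Atg3, chr16:44978942-44979241, plus strand: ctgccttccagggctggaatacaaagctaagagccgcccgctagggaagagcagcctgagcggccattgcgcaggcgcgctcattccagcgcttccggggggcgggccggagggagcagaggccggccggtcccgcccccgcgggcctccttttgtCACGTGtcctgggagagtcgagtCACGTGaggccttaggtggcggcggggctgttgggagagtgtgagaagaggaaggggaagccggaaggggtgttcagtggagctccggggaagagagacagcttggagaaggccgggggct
Atg7, chr6:114647807-114648106, plus strand: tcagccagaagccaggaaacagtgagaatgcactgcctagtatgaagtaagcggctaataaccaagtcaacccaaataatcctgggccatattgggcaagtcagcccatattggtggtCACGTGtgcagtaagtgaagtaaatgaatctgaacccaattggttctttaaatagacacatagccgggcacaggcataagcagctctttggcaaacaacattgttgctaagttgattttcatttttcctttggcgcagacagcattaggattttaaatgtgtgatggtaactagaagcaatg

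The RefSeq starts of these windows lie inside the genes as GENCODE vM39 places them, by 480 bases in Tecpr1, 578 in Wipi1, 444 in Atg3, 9400 in Rubcn and 28013 in Atg7, so that promoters of starts farther upstream were not all searched. Rubcn has a further window upstream without the motif. In Rubcn the core lies at bases -88 to -83 from the start, in Atg7 at -132 to -127, and in Atg3 it occurs at -94 to -89 and again at -71 to -66. Read on both strands, CACGTG was found in 5 of the 41 member windows (12.2%), those 3 and one each of Atg14 and Atg5, and in 9.6% of the 12922 windows of tested protein-coding genes. The full CLEAR palindrome, a longer motif that contains CACGTG, was in 0 member windows and in 0.642% of all. The antioxidant response core TGACNNNGC was in 4 member windows (9.76%), those of Ulk2, Atg13, Map1lc3b and Tax1bp1, against 14.3% of all windows. TGATGNAA, a core shared by C/EBP and ATF4 dimers, was in 0 member windows and 2.44% of all. None of these motifs was found in the windows held for Tecpr1, Wipi1, Sqstm1, Optn or Plekhm1, which says only that these letters are not in those 300 bases. The Sqstm1 start used lies 6037 bases inside that gene.

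In the initiation complex, 1 gene rose with MSNP and 2 fell. Atg13, the subunit that joins the ULK kinases to the scaffold Rb1cc1, read 114, 115 and 111 CPM in the MSNP libraries and 72.2, 73.7 and 66.4 CPM in the controls. With SNP100 it read 74, 76.3 and 69.4 CPM, with SNP50 71.1, 72.2 and 71.6 CPM and with HMSNP 70.8, 69 and 70.5 CPM, so that the MSNP values overlapped with no other library. The log2 fold change against the controls was 0.68 (SE 0.0603, edgeR adjusted p = 5.81e-07). Arhgap1, which overlaps Atg13 on the other strand, was higher too, at 118 against 97.8 CPM (log2 0.27, edgeR adjusted p = 0.00528). Atg101, which stabilizes Atg13, fell by 0.52 (SE 0.158, edgeR adjusted p = 0.0262), from 19.8, 18.6 and 32.4 CPM in the controls to 16.4, 15.8 and 17.2 CPM with MSNP. The highest of these control values was in the library that stood apart, and the HMSNP libraries, at 18.6, 16.9 and 17.3 CPM, overlapped with MSNP and reached up to the lowest control. Atg101 was at 22.4, 22 and 21.3 CPM with SNP100 and 27.9, 23 and 24.4 CPM with SNP50. This call was lost without MSNP replicate 1 (log2 fold change -0.50) and without MSNP replicate 2 (-0.48). Ulk2 was 0.39 lower on the log2 scale with an adjusted p of 0.0485, close to the threshold, and its MSNP libraries, 27.1 to 30.5 CPM, overlapped with Control replicate 3 at 27.3 CPM. The Ulk2 call was lost without any 1 of the other 14 libraries, and without Control replicate 2 the log2 difference was -0.21. For Ulk1, the other kinase of this complex, the log2 difference was -0.08 (±2 SE, -0.387 to 0.219), and for Rb1cc1 it was 0.12 (SE 0.187).

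Of the 7 genes of the lipid kinase complex and its regulators, only Rubcn changed against the controls, and it did so only with MSNP among the 4 comparisons as fitted. Rubcn encodes Rubicon, which holds back the autophagic form of the complex and is used in LC3-associated phagocytosis. Its MSNP libraries read 60.1, 60.6 and 50 CPM, the controls 31.7, 37.2 and 24.2 CPM, and the HMSNP libraries 39, 40.3 and 39.8 CPM. They were 33.6, 34.3 and 32 CPM with SNP100 and 30.5, 35.9 and 33.1 CPM with SNP50. MSNP stood above all others, and the HMSNP libraries were also above every control and every SNP100 and SNP50 library. The log2 fold change was 0.88 with MSNP (SE 0.125, edgeR adjusted p = 8.05e-05) and 0.36 with HMSNP (SE 0.124, edgeR adjusted p = 0.11). Fyttd1, which overlaps Rubcn on the other strand and is more abundant, was also higher with MSNP, at 102 against 68 CPM (log2 0.58, edgeR adjusted p = 0.000273), and since the strand setting of the counting is not known, its part in the Rubcn value was not tested. The catalytic subunit Pik3c3 was at -0.16 with MSNP (edgeR adjusted p = 0.137), the core subunit Becn1 at -0.04 (±2 SE, -0.18 to 0.102), and Atg14, Pik3r4, Uvrag and Ambra1 were between 0.13 and 0.27 without passing the test.

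Among the genes that read the lipid mark and supply membrane, Wipi1 fell with both mesoporous particles. Wipi1 encodes a propeller protein that binds phosphatidylinositol 3-phosphate, and it lies at chr11:109464156-109502793 on the minus strand. It read 9.71, 11.9 and 9.45 CPM in the controls, 2.88, 3.35 and 3.79 CPM with MSNP, and 6.58, 6.71 and 6.76 CPM with HMSNP. The SNP100 libraries were at 9.08, 9.01 and 9.78 CPM and the SNP50 libraries at 8.88, 8.9 and 8.32 CPM. The 3 ranges of MSNP, HMSNP and all other libraries were thus separate, with HMSNP in between. The log2 fold change was -1.63 with MSNP (SE 0.112, 3.09-fold lower, edgeR adjusted p = 3.87e-08) and -0.63 with HMSNP (SE 0.106, 1.55-fold lower, edgeR adjusted p = 0.00248). With only the 6 libraries of the comparison in the model, the HMSNP change lost its call (edgeR adjusted p = 0.133). Its relative Wipi2, which recruits the ATG16L1 complex, was at -0.08 with MSNP (±2 SE, -0.2 to 0.0305) and all its libraries lay between 58.8 and 66.7 CPM. The lipid transfer genes Atg2a and Atg2b and the scramblase gene Atg9a did not pass the test against the controls, where Control replicate 3 read 16.7 CPM for Atg9a and the other controls 34.9 and 38.7 CPM.

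In the conjugation machinery 4 of 10 genes rose with MSNP and the other 6 did not pass the test. Atg7, the activating enzyme for both ubiquitin-like systems, read 100, 95.2 and 95.9 CPM with MSNP and 57.9, 58.7 and 55.7 CPM in the controls, and no other library exceeded 64.5 CPM. With SNP100 it was at 63.2, 63.1 and 60.6 CPM, with SNP50 at 62.3, 64.4 and 59.6 CPM and with HMSNP at 61.9, 64.5 and 64.1 CPM. Its log2 fold change of 0.76 had an SE of 0.0581 (edgeR adjusted p = 1.18e-07), and its value was nearly the same in all 3 controls. Atg3, the enzyme that passes ATG8 proteins to lipid, rose by 0.44 (edgeR adjusted p = 0.00154), from 73.6, 75 and 96.8 CPM to 114, 112 and 107 CPM. Atg12, the ubiquitin-like protein that is joined to Atg5, rose by 0.39 (edgeR adjusted p = 0.000528), and the protease gene Atg4d by 0.32 (edgeR adjusted p = 0.0066). With an offset for transcript length both lost their call, at log2 fold changes of 0.22 for Atg12 and 0.10 for Atg4d, and with this offset but without Control replicate 3 both were called, at 0.38 and 0.40. Atg4d also lost its call in the fit of the 6 libraries alone. Atg5 and Atg16l1, the partners of Atg12 in the ligase, were at 0.08 (±2 SE, -0.073 to 0.227) and -0.06 (±2 SE, -0.244 to 0.123). Atg10, the enzyme for Atg12, was at 0.06 (SE 0.132), and the remaining proteases Atg4a, Atg4b and Atg4c were at 0.17, -0.01 and 0.24. With HMSNP, Atg4b fell by 0.26 (SE 0.0644, edgeR adjusted p = 0.0325), from 49, 51.4 and 53.5 CPM to 41.8, 43.8 and 43.1 CPM. These HMSNP libraries were below all others, but the call was lost under 10 of the 23 alternative settings, among them leaving out any 1 HMSNP library, with log2 differences from -0.22 to -0.27.

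Of the 5 ATG8 genes, Map1lc3b alone passed the test with MSNP. Its libraries read 105, 100 and 98.1 CPM with MSNP, 67.9, 66.4 and 92.2 CPM in the controls, and 65.6, 62.6 and 60.9 CPM with HMSNP. With SNP100 it was at 79.1, 79.4 and 76.7 CPM and with SNP50 at 84.6, 77.8 and 71.8 CPM. The MSNP libraries were above and the HMSNP libraries below all others. The log2 fold change was 0.42 with MSNP (SE 0.105, edgeR adjusted p = 0.00859) and -0.26 with HMSNP (SE 0.105, edgeR adjusted p = 0.155). Gabarap reached 286, 275 and 264 CPM with MSNP, above the 2 controls at 191 and 187 CPM but below Control replicate 3 at 317 CPM, and its log2 fold change of 0.25 did not pass (edgeR adjusted p = 0.252). It read 182, 192 and 187 CPM with HMSNP, 212, 205 and 220 CPM with SNP100 and 231, 218 and 207 CPM with SNP50, so that the 3 MSNP libraries were above all other treated ones. Map1lc3a, which encodes LC3A, read 5.33, 6.16 and 11.6 CPM in the controls and 5.62, 6.56 and 5.87 CPM with MSNP. It was at 7.15, 6.42 and 6.67 CPM with SNP100, 7.09, 6.41 and 6.59 CPM with SNP50 and 6.05, 6.21 and 5.29 CPM with HMSNP. Gabarapl2 read 53, 55.2 and 86.9 CPM in the controls, 51.7, 48.6 and 50.4 CPM with MSNP and 49.2, 43.8 and 45.3 CPM with HMSNP, beside 50.4, 50.7 and 47.7 CPM with SNP100 and 56.9, 51.4 and 50 CPM with SNP50. Both had their highest value of all 15 libraries in Control replicate 3. Gabarapl1 read 74.3, 82.6 and 79.1 CPM in the controls, 86.7, 80.8 and 81.6 CPM with MSNP, 71.5, 80.1 and 71 CPM with HMSNP, 73.6, 69.8 and 73.3 CPM with SNP100 and 65, 69 and 68.5 CPM with SNP50. With HMSNP all 5 ATG8 genes had log2 fold changes below 0, from -0.09 to -0.50, and none passed the test. The nearest was Gabarapl2 with an edgeR adjusted p of 0.0567. Control replicate 3 was the highest control for every ATG8 gene except Gabarapl1. The HMSNP libraries overlapped with Control replicates 1 and 2 for Gabarap, Gabarapl1 and Map1lc3a. They were below both for Map1lc3b and Gabarapl2.

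Expressed per kb, the ATG8 genes summed to 307 ± 73.5 CPM per kb in the controls (SD, n = 3), 352 ± 11.7 with MSNP, 252 ± 5.08 with HMSNP, 286 ± 3.62 with SNP100 and 288 ± 15.4 with SNP50. The control range, 264 to 392 CPM per kb, included the MSNP libraries, at 342 to 365, but its upper end was Control replicate 3. The other controls lay below every MSNP library. Gabarap made up 42.1% to 44.3% of the sum in the group means, Map1lc3b 27.8% to 32.3%, and Map1lc3a 2.08% to 2.95%. Within the sum, Gabarapl2 had its lowest share with MSNP, 8.44% ± 0.253, with every MSNP library below every other one, against 12.4% ± 0.624 in the controls. This share also falls when the sum rises. The CPM of Gabarapl2 itself with MSNP overlapped with SNP100, SNP50 and HMSNP, and its log2 difference from SNP100 was 0.02.

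**Figure D3:**
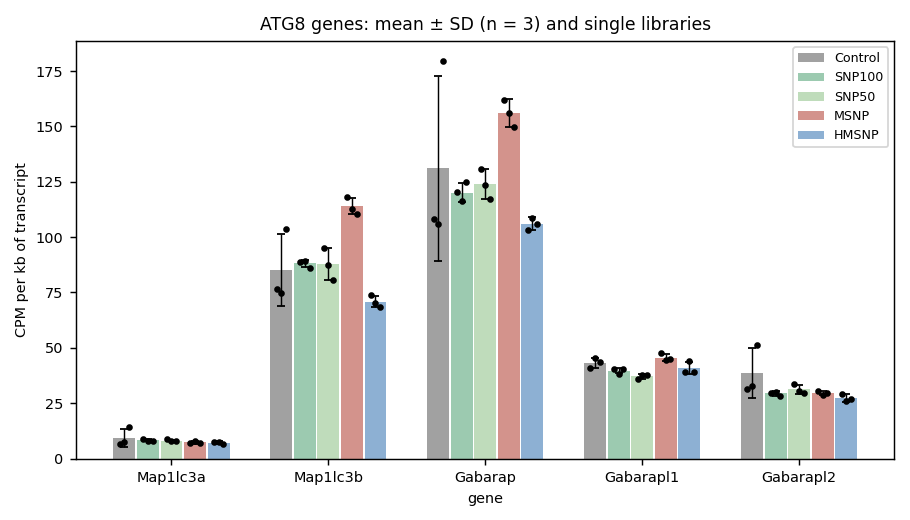
Bars give the mean CPM per kb of transcript of the 5 ATG8 genes in the 5 groups, error bars the SD (n = 3) and black points single libraries. Gabarap and Map1lc3b were highest with MSNP among the treated groups and lowest with HMSNP, and the wide control bars of Gabarap, Map1lc3b and Gabarapl2 come from Control replicate 3.

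Of the 5 cargo receptor genes, 3 rose with MSNP and 1 fell. Sqstm1, which carries ubiquitinated cargo and is itself degraded with it, was at 1299, 1216 and 1157 CPM with MSNP and between 588 and 746 CPM in the other 12 libraries. These were 656, 710 and 746 CPM in the controls, 662, 624 and 659 CPM with SNP100, 628, 627 and 588 CPM with SNP50 and 605, 706 and 624 CPM with HMSNP. The MSNP libraries overlapped with none of these, and the log2 fold change of MSNP against the controls was 0.80 (SE 0.0739, 1.74-fold, edgeR adjusted p = 9.57e-07). Mgat4b, which overlaps Sqstm1 on the other strand, was higher as well, by 0.49 (edgeR adjusted p = 0.000809), at 232 against 165 CPM. Optn, a receptor for ubiquitinated mitochondria and bacteria, rose from 0.426, 0.867 and 0.312 CPM to 5.25, 4.24 and 4.06 CPM, an 8.44-fold difference (log2 3.08, SE 0.261, edgeR adjusted p = 3.78e-07), which rested on 159, 157 and 137 reads with MSNP. Optn was at 1.14, 1.25 and 0.969 CPM with SNP100, 1.01, 1.22 and 0.928 CPM with SNP50 and 0.97, 0.743 and 1.01 CPM with HMSNP. All SNP100 and SNP50 libraries were above every control, and Control replicate 2 alone reached into the HMSNP range. The log2 fold changes of Optn were 1.07 with SNP100, 0.99 with SNP50 and 0.77 with HMSNP, none called (edgeR adjusted p = 0.118, 0.143 and 0.138). Tax1bp1 rose by 0.39 (SE 0.0926, edgeR adjusted p = 0.00589). Calcoco1, a receptor for endoplasmic reticulum, fell by 0.37 (SE 0.0895, edgeR adjusted p = 0.00707), from 11.2, 11.4 and 9.94 CPM to 7.83, 8.61 and 8.77 CPM, a call lost without MSNP replicate 1 (-0.30). Nbr1, a relative of p62, was at 0.15 without passing the test.

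Among the fusion genes, 3 of 6 rose with MSNP. Tecpr1, whose protein binds the Atg5 and Atg12 conjugate and sits on lysosomal membranes, lies at chr5:144131258-144160913 on the minus strand and had the largest change of all 43 members. It read 194, 203 and 202 CPM with MSNP against 22.9, 21.8 and 16.8 CPM in the controls. The SNP100 libraries were at 32.3, 35.5 and 29.8 CPM, the SNP50 libraries at 33.7, 33.6 and 29.5 CPM and the HMSNP libraries at 22.3, 21.2 and 24.5 CPM. The MSNP libraries were far above the rest, the nonporous particles lay above every control, and HMSNP overlapped with the controls. The fold change was 9.73 with MSNP (log2 3.28, SE 0.115, edgeR adjusted p = 4.14e-11), 1.59 with SNP100 (log2 0.67, SE 0.108, edgeR adjusted p = 0.00648) and 1.58 with SNP50 (log2 0.66, SE 0.108, edgeR adjusted p = 0.00713). For HMSNP the log2 difference was 0.15 (±2 SE, -0.0696 to 0.364). The MSNP call held under all 23 alternatives. The SNP100 call was lost without SNP100 replicate 2 (log2 fold change 0.60) and the SNP50 call without SNP50 replicate 1 (0.64), and both with only the 6 libraries of the comparison. Of the 4 genes that overlap Tecpr1 on the other strand, only Gm43267 had enough reads to be tested, with a mean of at most 0.0807 CPM in the control and MSNP groups.

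Plekhm1, an adaptor between Rab7, the HOPS tether and ATG8 proteins, read 392, 413 and 404 CPM with MSNP and 204, 226 and 145 CPM in the controls, with all other libraries between 228 and 255 CPM. These were 246, 255 and 243 CPM with SNP100, 232, 239 and 230 CPM with SNP50 and 228, 229 and 237 CPM with HMSNP. Its log2 fold change was 1.07 (SE 0.114, 2.11-fold, edgeR adjusted p = 4.09e-06). The antisense gene Arhgap27os1, which overlaps it, was at 0.117 CPM with MSNP against 0.55 CPM. Snap29, a SNARE of autophagosome fusion, read 62, 58.7 and 57.5 CPM with MSNP, 40.8, 46.4 and 36.4 CPM in the controls and at most 48.8 CPM in all other libraries, with 47.5, 44.8 and 46.4 CPM for SNP100, 38.1, 41.8 and 41.6 CPM for SNP50 and 45.4, 48.8 and 44.3 CPM for HMSNP. It rose by 0.53 (SE 0.0832, edgeR adjusted p = 0.000215). Pi4ka, which overlaps it on the other strand, was at 190 against 121 CPM (log2 0.65, edgeR adjusted p = 0.0592). The partners of Snap29, Stx17 and Vamp8, were at 0.16 and -0.26 without passing the test. Vamp8 read 154 CPM in Control replicate 3 and 81.8 and 76.9 CPM in the other controls, while the 12 treated libraries lay between 77.7 and 96 CPM, and its sign with MSNP turned when Control replicate 3 was left out. Epg5, a tether of autophagosomes and late endosomes, was at 0.34 with an SE of 0.222.

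**Figure D4:**
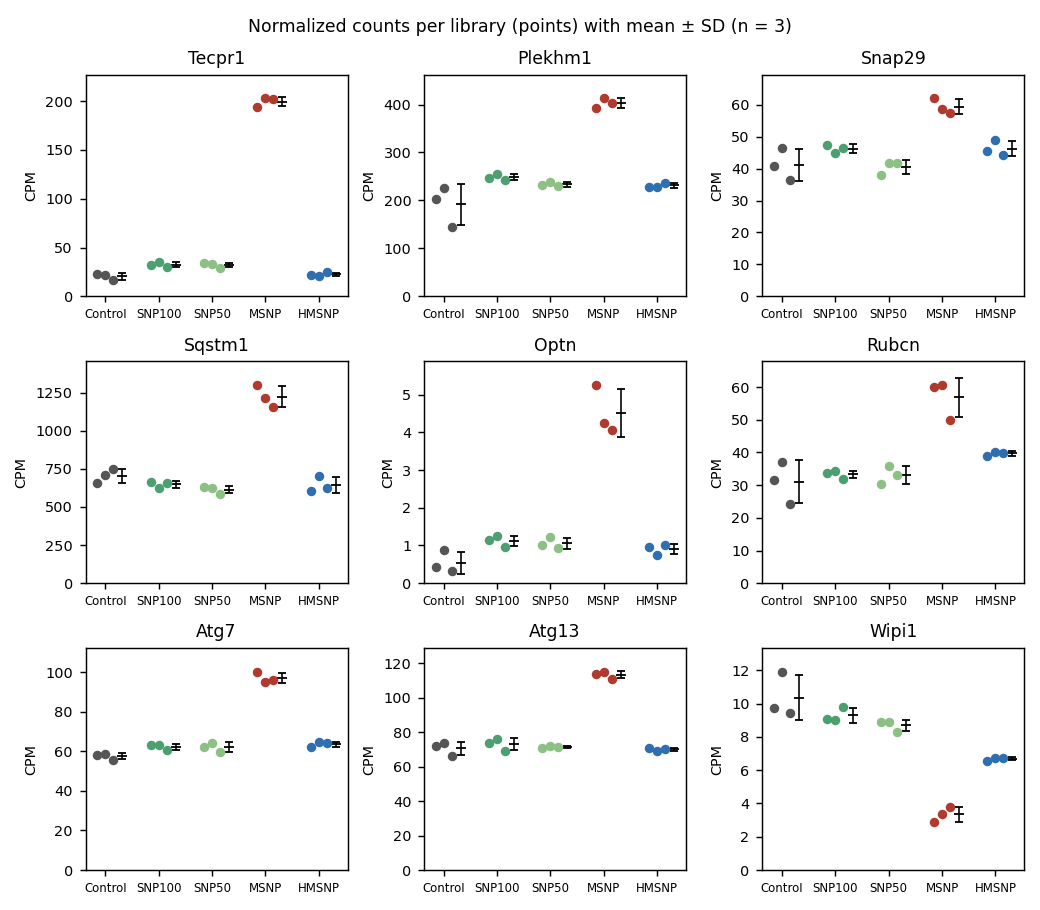
Points give the CPM of each library for the 9 members called with MSNP under every alternative setting, with the mean and SD (n = 3) beside each group, on axes that start at 0. MSNP stands above the other 4 groups in 8 of them, and Wipi1 is lowest with MSNP and second lowest with HMSNP.

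The comparison of HMSNP with MSNP set a hollow against a non-hollow mesoporous particle at the same dose and nominal diameter, and it called 18 members. The study describes these particles as also unlike in density and surface composition, and the number in the library names differs too, none of which can be told apart from the hollow core. Of the 43 members, 16 were lower with HMSNP and 2 higher, which was 37.2% and 4.65%, where 11% and 9.22% of all tested genes were lower and higher, and 16.8% and 12.8% of the genes at or above the level of the lowest member. The median log2 difference was -0.14 over the members and 0.00 over all tested genes. In the conjugation machinery 7 of 10 genes were lower with HMSNP: Atg3, Atg4a, Atg4b, Atg4c, Atg4d, Atg7 and Atg12, with log2 differences from -0.25 to -0.61. Map1lc3b was lower by 0.68 and Gabarap by 0.56 on the log2 scale (edgeR adjusted p = 0.000196 and 0.0127), and Sqstm1 fell by 0.92 (SE 0.074, edgeR adjusted p = 2.18e-07). Optn, Snap29, Plekhm1, Atg13 and Rubcn were lower too, and Tecpr1 was 8.79-fold lower (log2 -3.14, SE 0.114, edgeR adjusted p = 7.37e-11). The 2 genes that were higher with HMSNP both belong to the lipid transfer step. Wipi1 was 2-fold higher (SE of the log2 difference 0.114, edgeR adjusted p = 9.26e-06), and Atg9a by 0.67 (SE 0.209, edgeR adjusted p = 0.0347), with 35.7, 37 and 38.4 CPM against 24.9, 22.8 and 22.3 CPM, a call lost without SNP100 replicate 1 or any 1 MSNP or HMSNP library, with differences from 0.64 to 0.71. The controls, at 34.9, 38.7 and 16.7 CPM for Atg9a, entered this SE although they are in neither group. Atg4c lost its call without SNP100 replicate 1 or 2 or any 1 MSNP or HMSNP library, and Atg4b without HMSNP replicate 1, where its difference was -0.22. For Becn1 the log2 difference was -0.12 (±2 SE, -0.258 to 0.0242), and for Wipi2 it was 0.05 (SE 0.0576). Of these 18 members, 15 were called under all 23 alternatives. Without Control replicate 3, which is in neither group, 23 members were lower and 6 higher, where 18.4% and 15.5% of all tested genes were.

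**Figure D5:**
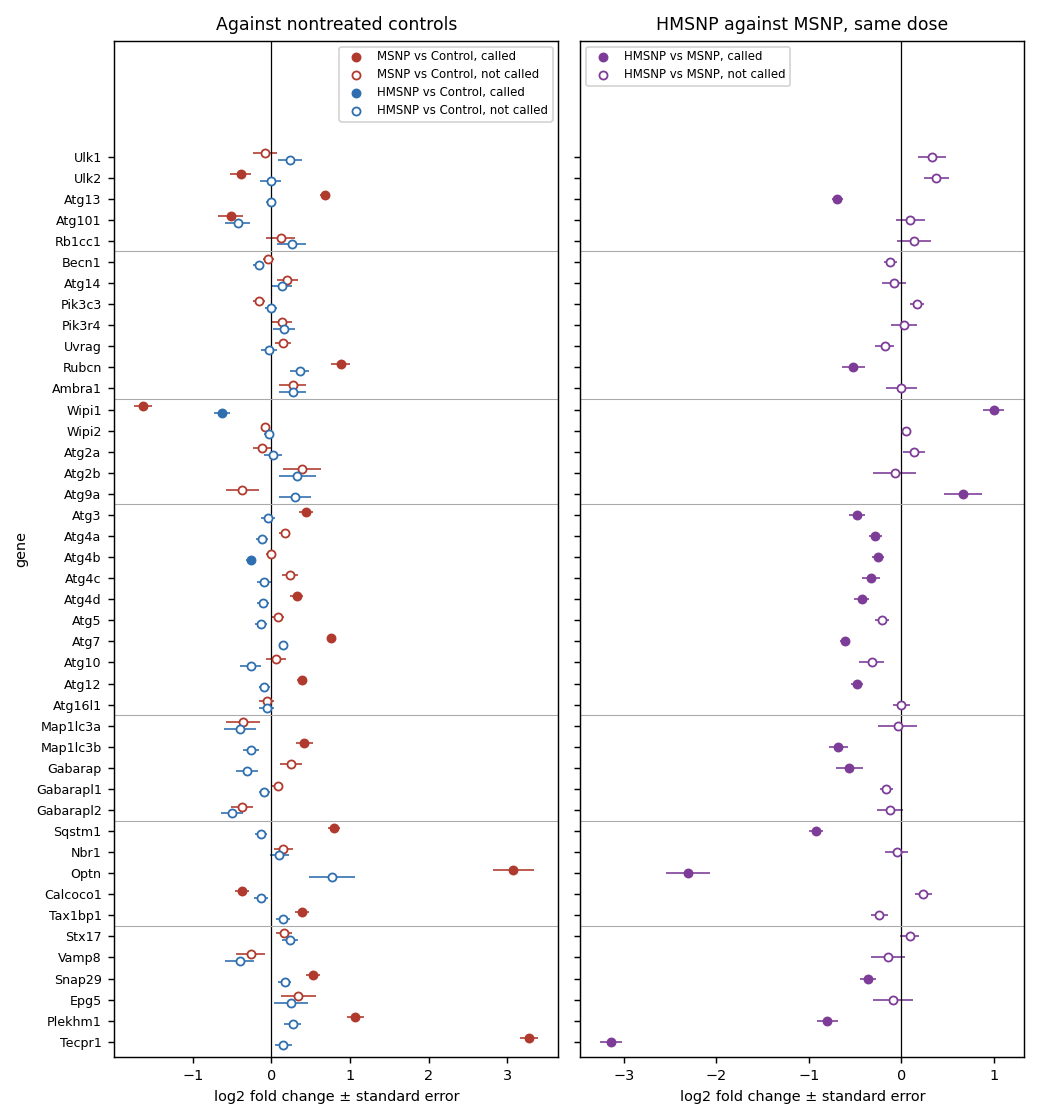
The left panel gives the log2 fold change ± SE of each of the 43 genes with MSNP (red) and HMSNP (blue) against the nontreated controls, and the right panel that of HMSNP against MSNP at the same dose, with filled points for an adjusted p under 0.05 and grey lines between the steps. In the right panel filled points lie mostly left of 0, from -0.25 for Atg4b to -3.14 for Tecpr1, with Wipi1 and Atg9a to the right.

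MSNP and SNP100 have the same nominal diameter and differ in porosity, but the MSNP dose was 200 and the SNP100 dose 50 µg/mL. Against SNP100, 14 members were higher with MSNP and 3 lower, where 10.4% and 7.53% of all tested genes were. Over the genes at or above the level of the lowest member, 16.2% were higher and 10.5% lower. Tecpr1 was 6.12-fold higher (log2 2.61, SE 0.111, edgeR adjusted p = 5.65e-10), Optn 4.01-fold and Sqstm1 1.89-fold. Atg4c, at 0.46 (SE 0.0987, edgeR adjusted p = 0.0039), passed here. Wipi1, Calcoco1 and Ulk2 were lower, by log2 differences of -1.47, -0.49 and -0.44. Of the 17 calls, 13 held under all 23 alternatives, and Ulk2, Atg4d, Map1lc3b and Tax1bp1 lost theirs under at least 1, Ulk2 and Tax1bp1 without any 1 SNP100 or MSNP library. Without Control replicate 3, 21 were higher and 7 lower, where 18.2% and 14.8% of all tested genes were. This comparison and that with the controls share the MSNP libraries. Between SNP50 and SNP100, which differ in diameter and in dose, no member passed the edgeR test, nor did any of the 19839 tested genes (0%). An unadjusted p under 0.05 was found for 2 members, both lower with SNP50, and DESeq2 called 0. For Tecpr1 the log2 difference was -0.01 (±2 SE, -0.225 to 0.202).

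Further genes of the pathway, 49 in a list of scaffolds, receptors, tethers and regulators, were read in the same fit, and 44 of them had enough reads. With MSNP 19 rose and 3 fell, where 11.8% and 11% of all tested genes did, with a median log2 fold change of 0.20. With HMSNP 5 rose and 2 fell, against 2.46% and 2.7% of all tested genes, and with SNP50 1 rose and 3 fell, against 0.454% and 0.958%. With SNP100, where 0.509% of all tested genes rose and 0.403% fell, edgeR called 0, DESeq2 called 4, and 9 had an unadjusted p under 0.05. Between HMSNP and MSNP, 21 were lower and 2 higher with HMSNP, against 11% and 9.22% of all tested genes. The largest increases with MSNP were Plekhm2, which links lysosomes to kinesin through Arl8 (1.33, SE 0.112), Ncoa4, the receptor for ferritin (1.25, SE 0.153), Tollip, a ubiquitin-binding adaptor (1.09, SE 0.0849), and Trp53inp2, which binds ATG8 proteins (1.02, SE 0.0939). Plekhm2 averaged 150 ± 6.14 CPM with MSNP and 59.4 ± 11.5 in the controls (SD, n = 3), and Ncoa4 114 ± 4 and 48 ± 14.1 CPM. With HMSNP the largest were Trp53inp1 (1.02, SE 0.159, edgeR adjusted p = 0.00144), a stress-induced relative of Trp53inp2, and Tmem74 (0.67, SE 0.153, edgeR adjusted p = 0.0188). Trp53inp1 averaged 5.9 ± 0.162 CPM with HMSNP, 4.29 ± 0.125 CPM with MSNP and 2.92 ± 0.821 CPM in the controls. Grouped after their values were seen, 5 of 6 subunits of the HOPS complex, which tethers lysosomes and binds Plekhm1, rose with MSNP, from 0.39 for Vps41 to 0.94 for Vps33a, beside the 11.8% of all tested genes that rose, and the same 5 were lower with HMSNP than with MSNP. Vps16 was at 0.11 and was not called. The 3 further genes that fell with MSNP were Wdr45 (-0.58), Ykt6 (-0.49) and Atg16l2 (-0.25). Ykt6 was also called lower with HMSNP (-0.45) and SNP50 (-0.42).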

How the data were processed

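RNA was measured in 15 libraries, 3 for each of 5 groups, assigned from the sample labels, with doses and times from the study's methods. The authors prepared directional poly(A) libraries and mapped the reads to GRCm39. The submitters' processing notes name cutadapt 1.16, STAR 2.7.9a and featureCounts 1.6.3, while the annotation and the strand setting are not given in the sources used here, so that reads of a gene and of an overlapping gene on the other strand may not have been kept apart. The deposited table holds raw whole-number counts per gene and library, without normalization.

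Symbols, positions and canonical transcript lengths came from GENCODE vM39 on GRCm39. The 43 members and all lists were chosen with earlier results of these data known. Every member was named, with values in each library for the ATG8 genes and for members called against the controls with an absolute log2 fold change of at least 0.5, and further genes were named as the 4 and 2 largest changes called with MSNP and HMSNP. Others were chosen after their values were seen.

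Genes with at least 10 counts summed over all libraries were tested with edgeR 4.0.16 in R 4.3.3: counts were normalized by TMM, all 15 libraries entered 1 quasi-likelihood model, and p was adjusted over all 19839 tested genes (Benjamini-Hochberg; called under 0.05). The SE is the size of the log2 fold change divided by the square root of F. CPM values are TMM-adjusted. The steps were tested on simulated data. Promoter windows were read from RefSeq. Alternatives were RLE normalization, DESeq2 1.42.0, other filters on low counts, 6 libraries per fit, a replicate block, an offset for transcript length, and leaving out each library. The offset without Control replicate 3 and the set of genes at or above the lowest member were added after the data were seen.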

Additional observations from a re-analysis of the deposited data

How the results depend on the processing

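Of 6923 comparisons of a gene's call under an alternative with its call as reported, 6629 kept their side of the threshold, 203 gained a call and 85 lost it with the same sign, and 6 called in either fit turned in sign. Among the 6629, a sign also turned in 307, called in neither fit, for values of at most 0.40 as reported. With MSNP, Ulk2 lost its call under 18 of the 23 alternatives, Atg101 under 3, Calcoco1 and Atg4d under 2, and Atg3, Map1lc3b, Tax1bp1 and Atg12 under 1. DESeq2 called 2 members higher for SNP100, 2 higher and 1 lower for SNP50, and 1 higher for HMSNP. With only the 6 libraries of each comparison, 0 members were higher for SNP100 and 0 for SNP50, 1 was lower for MSNP, 0 were lower for HMSNP, 8 were higher for HMSNP against MSNP, and 22 were higher and 7 lower for MSNP against SNP100. With an offset for transcript length, 2 were higher and 1 lower for SNP100, 2 higher and 2 lower for SNP50, 10 lower for MSNP, 7 lower for HMSNP, 6 higher for HMSNP against MSNP, and 6 lower for MSNP against SNP100. The same offset without Control replicate 3 gave 2 higher and 2 lower for SNP100, 4 higher and 9 lower for SNP50, 8 lower for MSNP, 7 lower for HMSNP, 6 higher for HMSNP against MSNP, 7 lower for MSNP against SNP100, and 1 lower for SNP50 against SNP100. Why these counts moved was not tested, and the fits of 6 libraries hold fewer samples. The shares of all tested genes called under these fits are not given here. The counts therefore do not show whether autophagy genes moved more than other genes.

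Leaving out 1 library at a time gave 0 to 3 members higher and 0 to 2 lower for SNP100, 0 to 5 and 0 to 8 for SNP50, 13 to 19 and 1 to 8 for MSNP, 0 to 12 and 1 to 8 for HMSNP, 1 to 6 and 14 to 23 for HMSNP against MSNP, and 12 to 21 and 2 to 7 for MSNP against SNP100. Without Control replicate 2, 3, 19 and 12 members rose for SNP100, MSNP and HMSNP. Of all tested genes, 0.891%, 16.4% and 13.3% then rose. The median log2 fold change of the autophagy members ranged from -0.05 to 0.10 for SNP100, -0.07 to 0.04 for SNP50, 0.08 to 0.27 for MSNP, and -0.05 to 0.04 for HMSNP, with the lowest value without Control replicate 3 and the highest without Control replicate 2 in each, and from -0.16 to -0.12 for HMSNP against MSNP, 0.12 to 0.17 for MSNP against SNP100 and -0.08 to -0.03 for SNP50 against SNP100. Over the same single-library omissions the log2 fold change of Gabarap, SNP50 vs Control, ran from -0.21 without Control replicate 2 to 0.20 without Control replicate 3, that of Vamp8, SNP50 vs Control, from -0.39 to 0.17, and that of Vamp8, MSNP vs Control, from -0.44 to 0.14 (0.15 with the length offset as well). The log2 fold change of Atg2a, HMSNP vs Control, turned to -0.19 with the length offset, with or without Control replicate 3.

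Libraries of the same replicate number share only that number: the correlation of their deviations from the group means lay between -0.134 and 0.122 over 30 pairs, 2 of them over 0.1, and 5 of 15 libraries were on average closest to their own number. With the replicate block, 1 member was lower for HMSNP instead of 2, and no other member count moved by over 1.5 times.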
